A study of Homo sapiens with 3 samples.

Results

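The PAX3 gate cells were 1382 of the 9219 cells kept from the day 5 library of a chemical induction of human fibroblasts, and the other 7837 kept cells were the comparison. They were the 15% of cells with the highest share of unique molecular identifiers (UMIs, one per captured RNA molecule) in PAX3, SMOC1, ANOS1 and HS3ST3B1, so these 4 genes are left out of the results. The series held 3 wild-type libraries, 1 per group. Day 0 was BJ, an established human fibroblast line, and days 3 and 5 were cells derived from it, labelled as induced neurons (FiN). All 3 carry the same treatment text: serum-grown BJ cells on coated dishes went into an induction medium and later a maturation medium, both with forskolin, an activator of adenylyl cyclase. Forskolin was taken out on day 5, and the labels do not say whether the day 5 cells were collected before or after that, or whether the day 0 cells had met it. No sort or clone is named.

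In the embryonic neural tube, progenitors take a position along the dorsal to ventral axis from opposing signals, BMP and Wnt ligands above and Sonic hedgehog below. PAX3 and PAX7 are paired-box factors of the dorsal progenitors, PAX6 is a paired-box factor of intermediate and dorsal progenitors, and FOXA2 and SHH mark the floor plate at the ventral midline. Progenitors leaving the cell cycle switch on Notch ligands and proneural factors before neuronal genes.

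The gate rested on few molecules per cell. A member held 2 to 41 UMIs of the 4 genes, with a median of 6, and 118 members held 2 of them. PAX3 was detected in 86.0% of members and gave 60.6% of their gate UMIs, and 303 members had UMIs of 1 gate gene only. The lowest share in a member was 716 CPM (counts per 1000000 UMIs) and the highest in another cell was 714.5 (the 69 cells just inside reached 753.9 and the 69 just outside went down to 684.6), so the boundary ran through a continuous range. Of the kept cells, 53.6% had no gate UMI.

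Each level below is a gene's summed UMIs in CPM of its group's UMIs, with an exact Poisson 95% interval in parentheses. Since all cells came from 1 library, no test was possible and the intervals cover counting error only. A gene is called higher or lower where the ratio was at least 2, the larger CPM at least 10 and the intervals separate. The members held 7347490 UMIs (median 4102.5 per cell) and the other cells 44361032 (median 4431). Mitochondrial genes took 4.66% of UMIs in members and 4.98% in other cells, and MALAT1, a nuclear RNA, took 6.18% and 7.42%. Day 5 shared 47 cell barcodes with day 0 and 27 with day 3, among them 9 and 6 members. Because the gate and the levels come from the same cells, all comparisons are descriptions.

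Of 11074 genes with at least 10 CPM in either group, 130 were higher in the members (1.17%) and 376 were lower (3.4%). PAX7 had the largest ratio among genes above 50 CPM. On the list of dorsal neural tube factors, 6 of the 8 that reached 10 CPM in either group were higher. The list also holds genes of intermediate progenitors such as DBX2, and ZIC1 and LMX1B on it were not higher. Of the 6 higher genes, IRX3 and IRX5 reached 10 CPM only in the members, so the limit itself favoured a higher call for them. The count of 6 became 3 when PAX3 was left out of the gate (PAX7, PAX6 and DBX2) and 3 with the gate set on thinned cells (PAX7, DBX2 and GLI3). The Hedgehog transducers GLI2, GLI3 and BOC were also higher. The ventral genes FOXA1, FOXA2 and SHH were lower, as were the NFIA and FOXP2 factors. Most general progenitor genes, cell cycle genes and pan-neuronal genes were not called.

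PAX7, the paralogue of PAX3, stood at 132 CPM (124 to 141) in members and 35.7 (34.0 to 37.5) in other cells, a ratio of 3.70 (3.42 to 4.01). It lies on chromosome 1 at 18631006 to 18748866 on the plus strand (GRCh38, GENCODE 29), and the matrix counts the whole gene without separating exons from introns. With each cell thinned to 2155 UMIs, 23.0% of members (20.8 to 25.3, exact binomial) and 6.05% of other cells (5.53 to 6.60) had a PAX7 UMI, against 40.5% and 13.8% before thinning. In 2 clusters of neuron-like cells with few members the thinned share was 1.33% (0.535 to 2.71, cluster 5, median 3596.5 UMIs per cell) and 0.613% (0.0744 to 2.20, cluster 9, median 3630 UMIs). Neuron-like clusters with more members were at 9.57% (8.01 to 11.3, cluster 2) and 4.56% (2.915 to 6.77, cluster 4). The share in members was above each of these values. Whether any of these clusters lacks the gene was not tested. PAX7 was at 19.7 CPM in barcodes of at most 100 UMIs, which hold free RNA.

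PAX7 had the largest ratio above 50 CPM and was called inside clusters 0 and 3 as well, so the bases before its start are shown. They are the 250 bases upstream of the RefSeq start (GRCh38.p14, chr1:18630596-18630845, plus strand), with matches to the homeodomain core TAAT and to the CCAAT box, both searched on both strands, in capitals.
PAX7: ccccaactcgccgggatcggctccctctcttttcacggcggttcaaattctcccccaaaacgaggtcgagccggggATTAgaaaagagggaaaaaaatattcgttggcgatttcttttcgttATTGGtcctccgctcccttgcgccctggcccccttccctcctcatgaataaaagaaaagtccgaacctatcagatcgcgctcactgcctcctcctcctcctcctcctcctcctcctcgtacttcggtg
The TAAT core matched once, on the minus strand, 174 to 171 bases before the start, and 47.4% of the 35116 RefSeq promoter windows of this length hold at least 1 match. CCAAT matched once on the minus strand, 128 to 124 bases before the start, as in 32.0% of windows. The longer palindrome TAATTA, present in 4.35% of windows, and the E box CAGCTG, present in 14.0%, had no match in this window. The 2 longer motifs do not overlap the matches in capitals.

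Among the other dorsal and intermediate factors, DBX2, a homeobox gene of intermediate progenitors, was at 43.0 CPM (38.4 to 48.0) in members and 11.3 (10.3 to 12.3) in other cells. PAX6 was at 74.2 CPM (68.1 to 80.7) and 32.7 (31.1 to 34.4), a ratio of 2.27 (2.05 to 2.50). PAX6 is the one marker given for these cells that the gate did not use, and it was above the other cells. Free RNA held PAX6 at 61.3 CPM, a level between the 2 groups. A thinned share of 14.98% of members had a PAX6 UMI, against 6.84% of other cells. In the neuron-like clusters it was 7.53% (cluster 2), 5.16% (cluster 4), 2.65% (cluster 5) and 3.37% (cluster 9). Across all cells of clusters 0 and 3, which held 74.6% of members, it was 15.51% and 15.03%. Inside these 2 clusters PAX6 was not called between members and other cells. The Iroquois factors IRX3 and IRX5 were at 16.1 and 15.8 CPM in members and 7.26 and 7.85 in other cells, IRX3 being at 27.7 CPM in free RNA. GLI3, a Hedgehog-responsive factor that mainly represses targets, was at 522 CPM (505 to 539) against 223 (219 to 227).

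The 2 remaining dorsal genes that reached 10 CPM were LMX1B, lower at 5.17 against 15.6 CPM, and ZIC1, not called at 9.53 against 14.9. The other 21 of the 29 genes on this list were under 10 CPM in both groups or not in the table. MSX1, a BMP-induced factor of the dorsal midline, was at 1.09 CPM in members and ZIC4 at 1.36, while LMX1A, a roof plate factor, had 0 UMIs in the members, which allows up to 0.408 CPM at 3 UMIs. Roof plate and choroid plexus genes gave 0 higher and 1 lower (BMP6) of 2 that reached 10 CPM, the other being ZIC1. LMX1B, ZIC1 and BMP6 reached it only in the other cells, so the limit itself left no room for a higher call. PAX3 was set by the gate and is no check of the label. The dorsal midline genes MSX1 and LMX1A were at or near 0. 

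**Figure D1:**
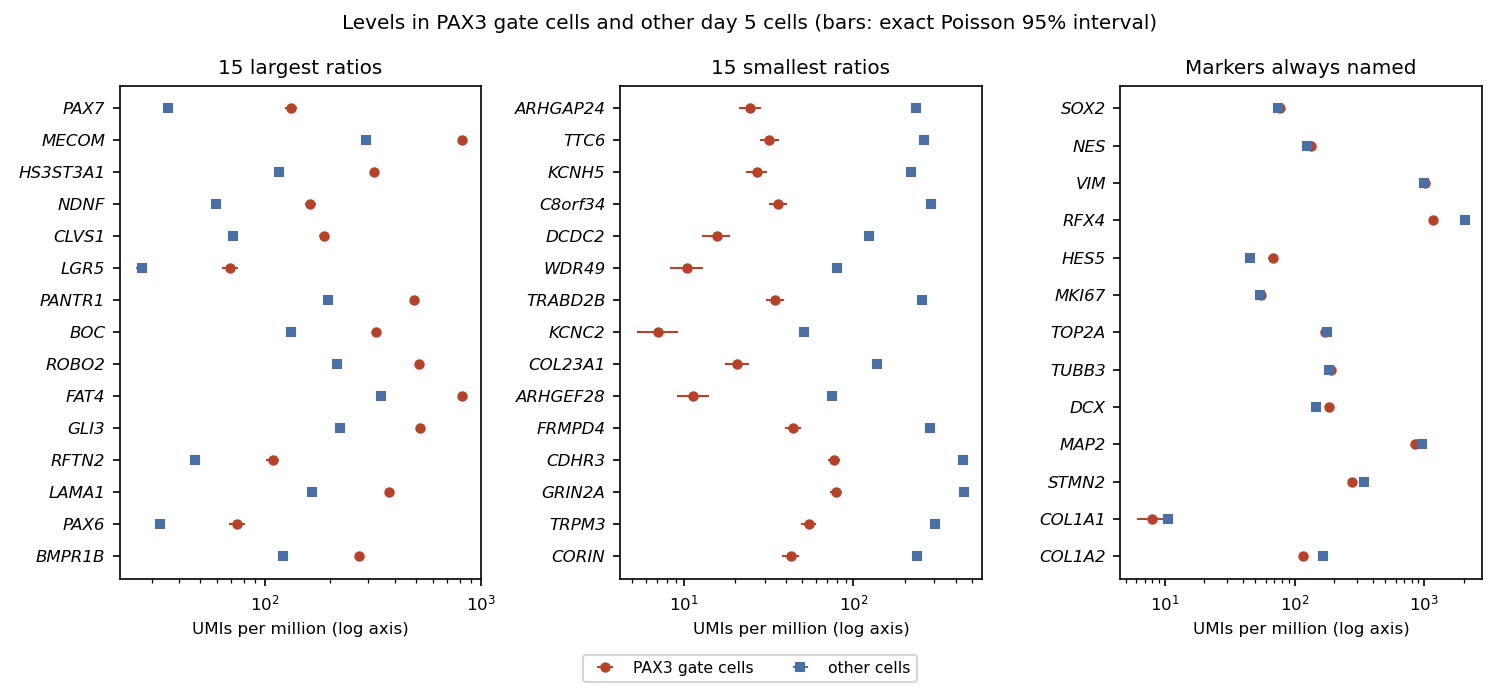
Levels in CPM (log axis) of the 15 genes with the largest ratio, the 15 with the smallest and 13 markers, in PAX3 gate cells (circles) and other day 5 cells (squares), with exact Poisson 95% intervals. PAX7 sits at 132 against 35.7, and SOX2, MKI67 and TUBB3 overlap between the groups.

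In the Hedgehog pathway, 3 of 12 genes were higher and 1 was lower, beside 1.17% and 3.4% of all genes tested. The median log2 ratio was 0.31 against 0.02 over all genes tested. GLI2, a transcriptional effector, was at 324 CPM (311 to 337) in members and 144 (141 to 148) in other cells. BOC, a cell-surface co-receptor for hedgehog ligands, was at 327 CPM (314 to 340) and 133 (129 to 136). The receptor PTCH1 was at 191 and 115 CPM and the transducer SMO at 63.2 and 49.7, neither reaching the limit for a call. The ligand SHH was lower, at 30.4 CPM (26.5 to 34.6) against 69.8 (67.4 to 72.3). Free RNA held SHH at 109 CPM, above both groups, and with cluster 8 left out of the other cells the ratio of SHH was 0.728 and not called. Without PAX3 in the gate, GLI2, GLI3, BOC and SHH kept their direction but were no longer called.

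Among ventral factors 5 of 9 were lower and 1, PRDM8, was higher, beside 3.4% and 1.17% of all genes tested. FOXA2 and LMX1B reached 10 CPM only in the other cells and PRDM8 only in the members, so the limit itself favoured those calls. FOXA1 was at 11.0 against 30.2 CPM and FOXA2 at 4.76 against 10.8. LMX1B is on both patterning lists. NKX6-1, a ventral progenitor factor, was at 11.3 against 21.7 CPM and was not called. Of the other cells 28.3% were in cluster 8, which had FOXA2 and SHH among its markers and only 30 members (1.33% of its 2250 cells).

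Of 22 Notch pathway genes, DLL1, JAG1 and HES6 were higher, MAML2, a coactivator, was lower and 18 were not called. Over all genes tested, 1.17% were higher and 3.4% lower. The ligand DLL1 was at 75.5 CPM (69.4 to 82.1) against 34.2 (32.5 to 35.9), and the ligand JAG1 was at 281 (269 to 293) against 132 (129 to 135). HES6, an antagonist of HES1, was at 157 against 75.7 CPM, with 185 in free RNA. The Notch target HES5 was at 67.8 against 45.3 CPM, a ratio of 1.495 that is under the limit, and at 208 in free RNA. Inside clusters 0 and 3, which held 74.6% of members, none of DLL1, JAG1, HES6 and MAML2 was called. After thinning, 21.4% of all cells of cluster 0 and 16.1% of members had a DLL1 UMI.

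Over all genes tested, 1.17% were higher and 3.4% lower, and the few calls per list here are to be read beside these shares. In the Wnt pathway, 3 of 31 genes were higher and 2 lower. LGR5, a receptor for R-spondins, was at 69.0 CPM (63.1 to 75.3) against 26.9 (25.4 to 28.4). The ligand WNT7B was at 27.4 against 10.2 CPM and the receptor ROR1 at 76.8 against 35.4. TNFRSF19 and ROR2 were the 2 lower genes. Of 24 BMP pathway genes, the receptor BMPR1B was higher, at 273 CPM (261 to 285) against 121 (118 to 124), and the ligand BMP6 was lower, at 6.13 against 22.1. No FGF gene of 15 was higher, and ETV5, an FGF target, was lower, at 2.45 against 10.6 CPM. BMP6 and ETV5 reached 10 CPM only in the other cells, so the limit itself favoured those calls. Within clusters 0 and 3, LGR5, WNT7B, ROR1 and BMPR1B were not called. All cells of cluster 3, members or not, held LGR5 at 92.7 CPM and BMPR1B at 287.

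MECOM, a zinc finger transcription factor, was the second of the genes above 50 CPM, at 824 CPM (804 to 845) against 293 (288 to 298), and was detected after thinning in 64.5% of members and 28.2% of other cells. HS3ST3A1, a heparan sulfate 3-O-sulfotransferase, was at 320 CPM against 116. It is a close paralogue and chromosome 17 neighbour of the gate gene HS3ST3B1, so shared reads between the 2 make its ratio uncertain. FAT4, an atypical cadherin, was at 821 CPM against 345, LAMA1, a laminin chain, at 375 against 166, and ROBO2, a Slit receptor, at 518 against 215. None of these 3 was called without PAX3 in the gate, and LAMA1 and ROBO2 were not called without cluster 8. SULF1, an extracellular heparan sulfate endosulfatase, was lower, at 265 CPM (253 to 277) against 1089 (1080 to 1099). The Slit ligands SLIT1, SLIT2 and SLIT3 were lower too, 3.10-fold, 3.11-fold and 5.39-fold, and NTN1, a netrin made by the floor plate, was 2.14-fold lower.

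Of the named genes above 50 CPM, those with the smallest ratio were ARHGAP24, a GTPase-activating protein, at 24.8 CPM (21.3 to 28.6) against 234 (230 to 239), and TTC6, at 32.0 against 261. GRIN2A, a subunit of the NMDA receptor, was 5.66-fold lower and FRMPD4, a scaffold protein of dendritic spines, was 6.39-fold lower. NFIA, a nuclear factor of gliogenesis, was at 134 CPM (126 to 143) against 668 (660 to 675), and FOXP2 was at 171 (162 to 181) against 660 (653 to 668). All 15 named genes of smallest ratio, a set chosen by that ratio, were at more than 5-fold lower levels in the members. Cluster 8, with 30 members, held ARHGAP24 at 613 CPM and TTC6 at 684. Within clusters 0 and 3, FRMPD4 was the only one of the 15 that kept its call.

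Of 28 progenitor genes, 3 were higher (PAX6, PTPRZ1 and GLI3), 2 lower (TNC and LRP2) and 23 not called. The shares over all genes tested were 1.17% higher and 3.4% lower. SOX2 was at 77.7 CPM (71.5 to 84.4) in members and 75.04 (72.5 to 77.6) in other cells, and was above both, at 143.5 CPM, in free RNA. Its thinned share was 16.6% of members (14.7 to 18.7) and 16.3% of other cells. In neuron-like cluster 2, whose median was 7675 UMIs, it was 8.47% (7.0 to 10.1). In the other neuron-like clusters it was 14.9% (11.9 to 18.3, cluster 4), 13.3% (10.5 to 16.45, cluster 5) and 13.2% (9.71 to 17.4, cluster 9). The members were above cluster 2 and overlapped clusters 4, 5 and 9. NES was at 133 and 124 CPM and VIM at 1014 and 990.6. RFX4, a radial glia factor, was at 1166 CPM in members and 2060 in other cells, under the limit for a call.

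**Figure D2:**
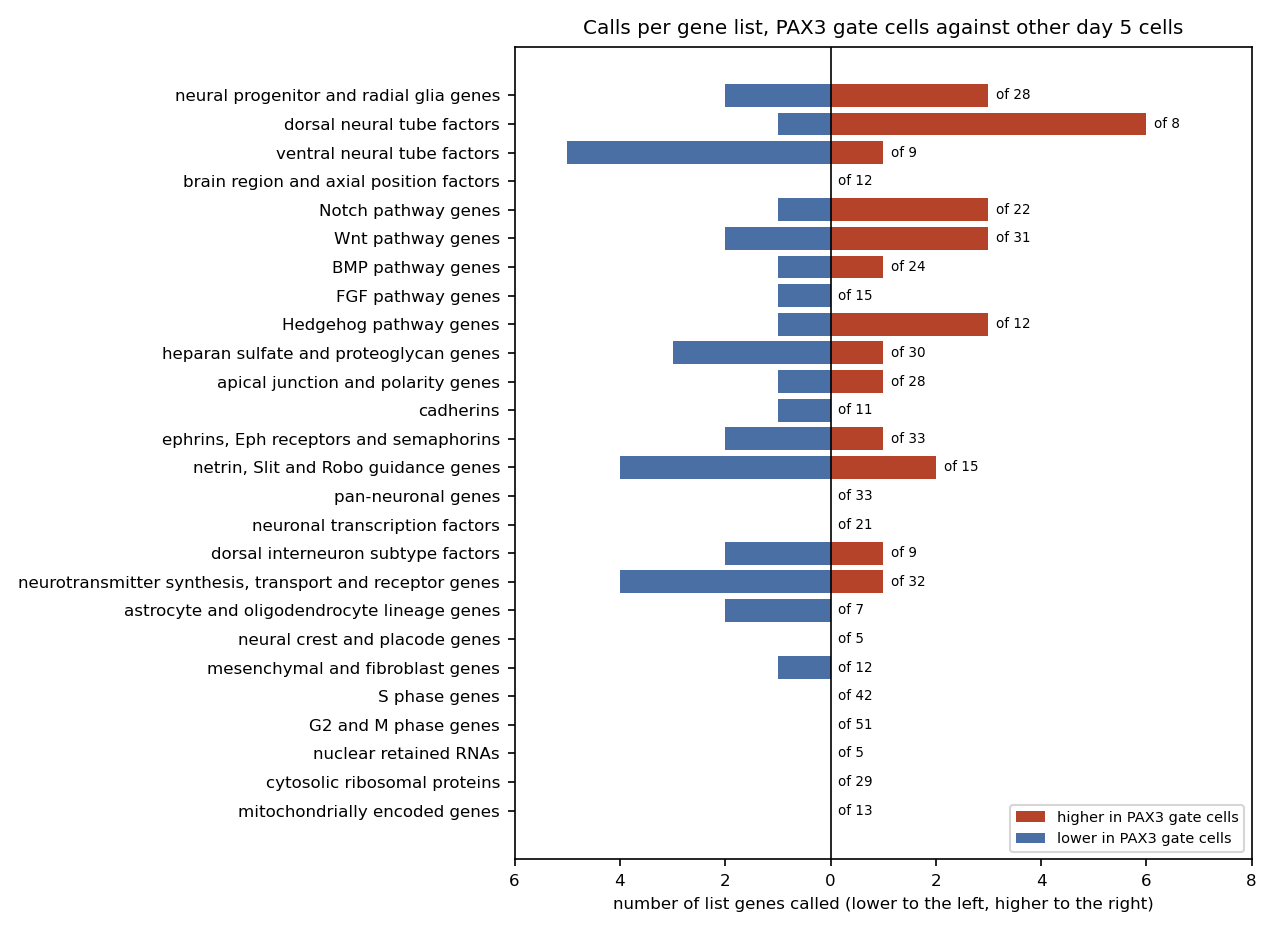
Number of list genes called higher (right) and lower (left) in the PAX3 gate cells, for lists with at least 5 genes at 10 CPM or more, with the number of genes tested beside each bar. The list of dorsal neural tube factors, which includes intermediate ones, had 6 of 8 higher (IRX3 and IRX5 reached 10 CPM only in the members). The cell cycle and pan-neuronal lists had no call.

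Cell cycle genes were level between the 2 groups as wholes. None of 42 S phase genes and none of 51 G2 and M phase genes was called. Over all genes tested, 1.17% were higher and 3.4% lower. MKI67 was at 55.1 and 54.5 CPM and TOP2A at 173 and 177. The groups differed in make-up, since cluster 3, led by cycling genes, held 28.7% of members and 12.2% of other cells. None of 33 pan-neuronal genes was called either, with a median log2 ratio of -0.31. TUBB3 was at 191 and 184 CPM, DCX at 183.5 and 147, MAP2 at 841 and 962 and STMN2 at 277 and 341. Summed over the list, pan-neuronal genes stood at 7217 CPM in members and 8952 in other cells. Of 12 mesenchymal genes, TBX18 was lower and no gene was higher, beside 3.4% and 1.17% of all genes tested. The summed level over the list was 558 CPM against 752. COL1A1 was at 8.03 and 10.6 CPM. The summed neural crest and placode list was at 1859 against 1260 CPM, most of it SOX5, and none of its 5 tested genes was called. Somite and muscle genes summed to 117 and 84.9 CPM, with 0 of 2 called.

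Genes of position along the head to tail axis were not called, 0 of 12. HOXB3, a hindbrain and spinal cord factor, was at 104 CPM (96.7 to 112) in members and 99.3 (96.4 to 102) in other cells, HOXA3 at 17.7 and 22.2, and HOXB4 at 8.30 and 13.7. NR2F1, a nuclear receptor, was at 529 and 479 CPM and the TALE factors MEIS1 and MEIS2 at 557 and 2020 in members against 434 and 2270 in other cells. None of 21 neuronal transcription factors was called, MYT1L being at 100.3 CPM in members and 171 in other cells. In the glial lists, NFIA and MBP were lower, 2 of 7, beside 3.4% of all genes tested.

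The gate share was a graded measure, and levels of several genes are described along it. The bins are cut on the value the gate used, so they are no check of it. Their make-up by cluster was not tested. Cells without gate UMIs, other cells in 3 parts and members in 3 parts of rising share were compared. Their median depths were 4081 UMIs per cell without gate UMIs, 6957, 3809 and 4580 in the parts of the other cells and 4348, 4202 and 3861.5 in those of the members. PAX7 stood at 31.9, 27.3, 39.8 and 56.7 CPM across the first 4 bins, and at 96.4, 132 and 183 CPM in the members. GLI3 went from 158 CPM without gate UMIs to 590 in the top part of the members. NFIA went from 850.5 to 93.5 CPM, and FOXP2 from 830 to 107. MECOM was at 157 CPM without gate UMIs, 883 in the middle part of the members and 830 in the top part. RFX4 was at 2455 CPM without gate UMIs and between 1145 and 1211 CPM in the 3 parts of the members, and SOX2 stayed between 61.9 and 89.1 CPM.

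**Figure D3:**
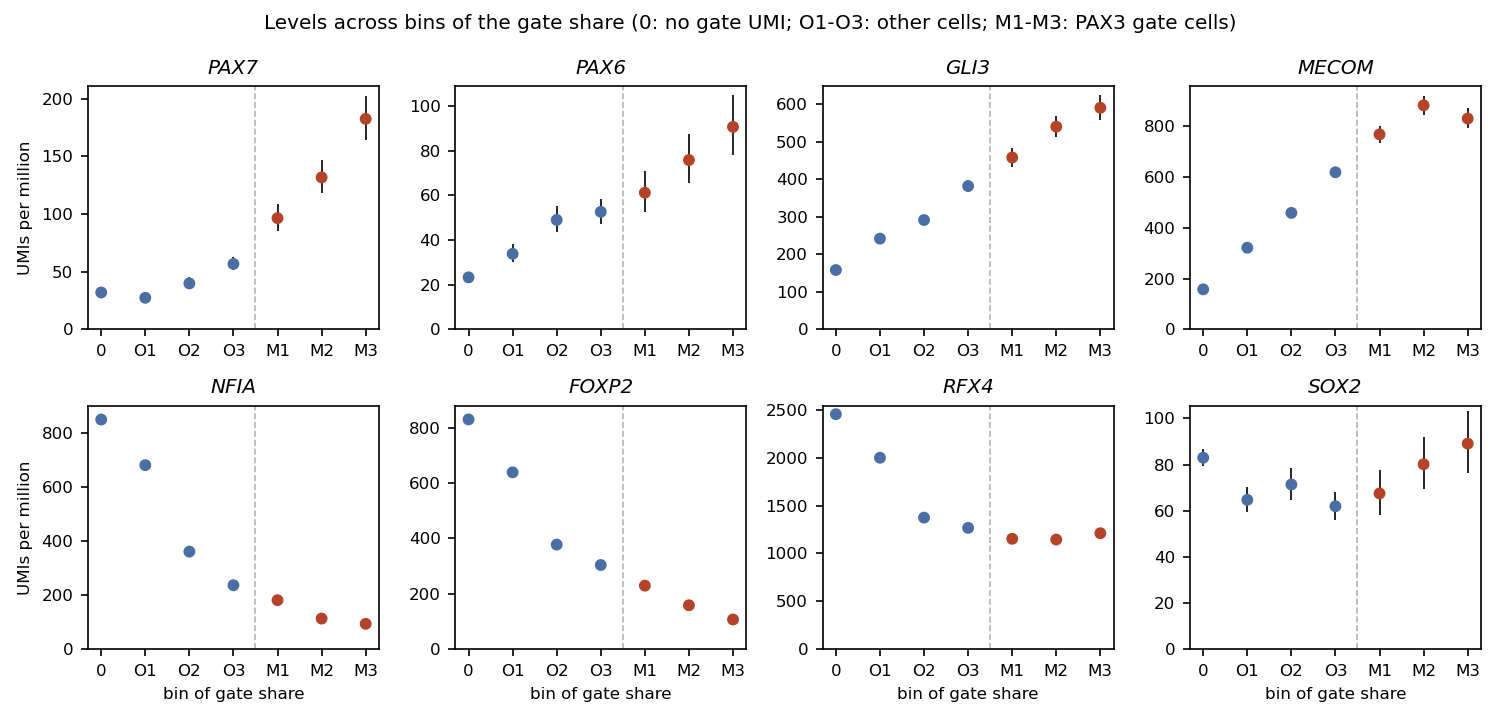
CPM of 8 genes across 7 bins of the gate share: no gate UMI, 3 parts of the other cells (O1 to O3) and 3 parts of the members (M1 to M3), with exact Poisson 95% intervals. PAX7 goes from 31.9 to 183 while NFIA goes from 850.5 to 93.5, and SOX2 stays between 61.9 and 89.1.

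Clusters were found without the 4 gate genes, and the members were spread over several of them. Cluster 0, led by DLL1 and HES6, held 635 members (45.9%), cluster 3, led by cycling genes, MECOM and LGR5, held 396 (28.7%) and cluster 2 held 221 (16.0%). Cluster 2 had 6 of the neuron markers raised and a median of 7675 UMIs per cell, so part of the gate carried neuron markers and was deeper than the rest. Its members also held RFX4 at 1004 CPM, MECOM at 582 and GLI3 at 400.5, against 1272, 752 and 577 in those of cluster 0. Doublets were not removed, so neuron-like cells and mixed barcodes cannot be told apart here. No cluster was made of members only, since they were 40.4% of cluster 0 (37.9 to 42.8) and 29.3% of cluster 3 (26.9 to 31.8).

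Comparing members with other cells inside the same cluster left far fewer differences. Within clusters 0 and 3 together, 1031 members (74.6%) and 1893 other cells gave 42 of 10827 genes higher (0.388%) and 66 lower (0.61%). PAX7 had the largest ratio, at 152 CPM against 26.7, or 5.68. Of the 8 dorsal factors tested there, PAX7 was the only one called. PAX6 had a ratio of 1.07, MECOM 1.27, GLI3 1.33 and GLI2 1.09, so their calls against all other cells were not seen inside these clusters. FOXP2, FRMPD4, GRM7 and CDH18 were lower in both comparisons. SHH had a ratio of 1.18 there and its direction turned.

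PAX7 was above the other cells in each of the 3 clusters. In cluster 0 it was at 167 CPM in members and 26.5 in other cells, in cluster 3 at 129 and 26.9, and in cluster 2 at 92.6 and 41.7. PAX6 was at 94.1 and 76.7 CPM in cluster 0 and at 74.7 and 83.2 in cluster 3, a lower value in members. NFIA was at 91.9 against 154 CPM in cluster 0, at 123 against 254 in cluster 2 and at 108 against 223.5 in cluster 3. PAX7 was not confined to the members, since 10.8% of the cells of cluster 8 (9.55 to 12.2) had a PAX7 UMI after thinning.

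**Figure D4:**
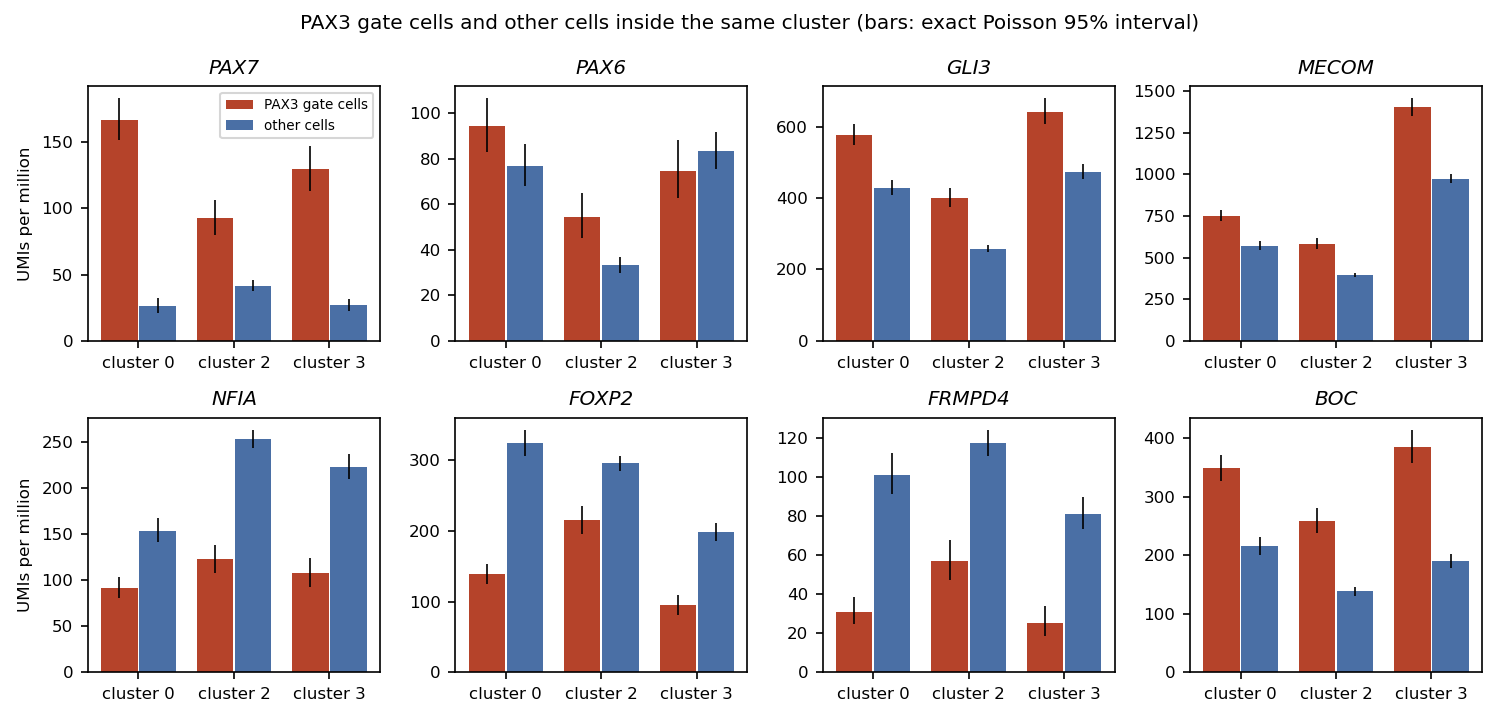
CPM of 8 genes in PAX3 gate cells and other cells of clusters 0, 2 and 3, with exact Poisson 95% intervals. PAX7 is at 167 against 26.5 in cluster 0 and 129 against 26.9 in cluster 3, while PAX6 is at 74.7 against 83.2 in cluster 3.

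Leaving cluster 8 out of the comparison cells also changed the counts. Of 10963 genes 45 were then higher (0.41%) and 221 lower (2.02%), and PAX7 and DBX2 were the 2 dorsal factors still called. The ratio of PAX7 was 5.11 and that of PAX6 was 1.78. For LGR5 the ratio was then 1.94, for BMPR1B 1.96, for JAG1 1.79, for LAMA1 1.70, for ROBO2 1.80, for GLI3 1.94 and for GLI2 1.71, each under the limit. Among the lower genes, SULF1 was at 265 CPM against 362.5, SLIT2 at 412 against 590, NTN1 at 476 against 583.5 and FOXP2 at 171 against 306, none of them called. NFIA, SLIT1, ARHGAP24, TTC6, FRMPD4 and GRIN2A were still lower, ARHGAP24 at 24.8 against 69.4 CPM. Cluster 6, with 9.02% of the other cells and only 2 members, stayed in this comparison. It had ARHGAP24 at 273 CPM, TTC6 at 351, FRMPD4 at 988 and GRIN2A at 691, and NFIA in 77.4% of its cells after thinning. Within clusters 0 and 3, FRMPD4 was the only one of these genes that kept its call. Of the 50 named genes called against all other cells, 20 kept their call. Without PAX3 in the gate, BMPR1B and JAG1 were also not called. Without the members in cluster 2, 156 of 11122 genes were higher (1.4%) and 643 lower (5.78%), and 11 of 33 pan-neuronal genes were among the lower.

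Against an equal number of cells outside the gate with the highest summed share of SOX2 and RFX4, 1067 of 11295 genes were higher in members (9.45%) and 834 were lower (7.38%). MECOM was at 824 CPM against 49.2 in them and LGR5 at 69.0 against 5.40. In the pan-neuronal list 14 of 33 genes were higher and none lower, and 16 of 20 neuronal transcription factors were higher, MYT1L among them. Since this group was chosen by SOX2 and RFX4, the levels of those 2 genes are part of its rule. RFX4 was at 5497 CPM in this group and SOX2 at 89.4. The thinned share of RFX4 was 75.2% in neuron-like cluster 2, 40.5% in 4, 38.45% in 5 and 28.5% in 9, against 98.4% in cluster 8. The members included 221 cells of cluster 2. Whether the neuronal counts follow from the rule of this group was not tested. MECOM in this group was near its level in cluster 8, 63.25 CPM.

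Members fell into 6 sub-clusters. Their leading genes define them and are given only to say which cells they are. Sub-cluster 1 (405 cells) carried cycling genes, with TOP2A at 298.5 CPM, and MECOM at 1381. Sub-cluster 0 (291 cells) had CYP26B1, a retinoic acid hydroxylase, at 78.1 CPM and ADAMTSL1 at 1307. Sub-cluster 3 (199 cells) had the neuronal precursor genes NEUROD4 at 61.1 CPM, DLL3 at 352.5 and HES6 at 510.3. Sub-cluster 4 (228 cells, median 7644.5 UMIs) had neuronal MYT1L at 295 CPM and STMN2 at 578, and held 2221519 of the members' UMIs. Sub-cluster 2 (229 cells) had the cadherin CDH7 at 367 CPM, and sub-cluster 5 (30 cells) had TTC6 at 505 CPM and SHH at 83.4.

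The other factors varied across these groups. PAX7 was at 229 CPM (199 to 263) in sub-cluster 3, at 169.5 in sub-cluster 0, at 149 in sub-cluster 1, at 90.9 in sub-cluster 4 and at 54.4 (40.5 to 71.5) in sub-cluster 2. PAX6 was at 123 CPM in sub-cluster 0 and between 50.4 and 75.9 in the other 5. GLI3 ranged from 348 CPM in sub-cluster 5 to 745 in sub-cluster 0.

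**Figure D5:**
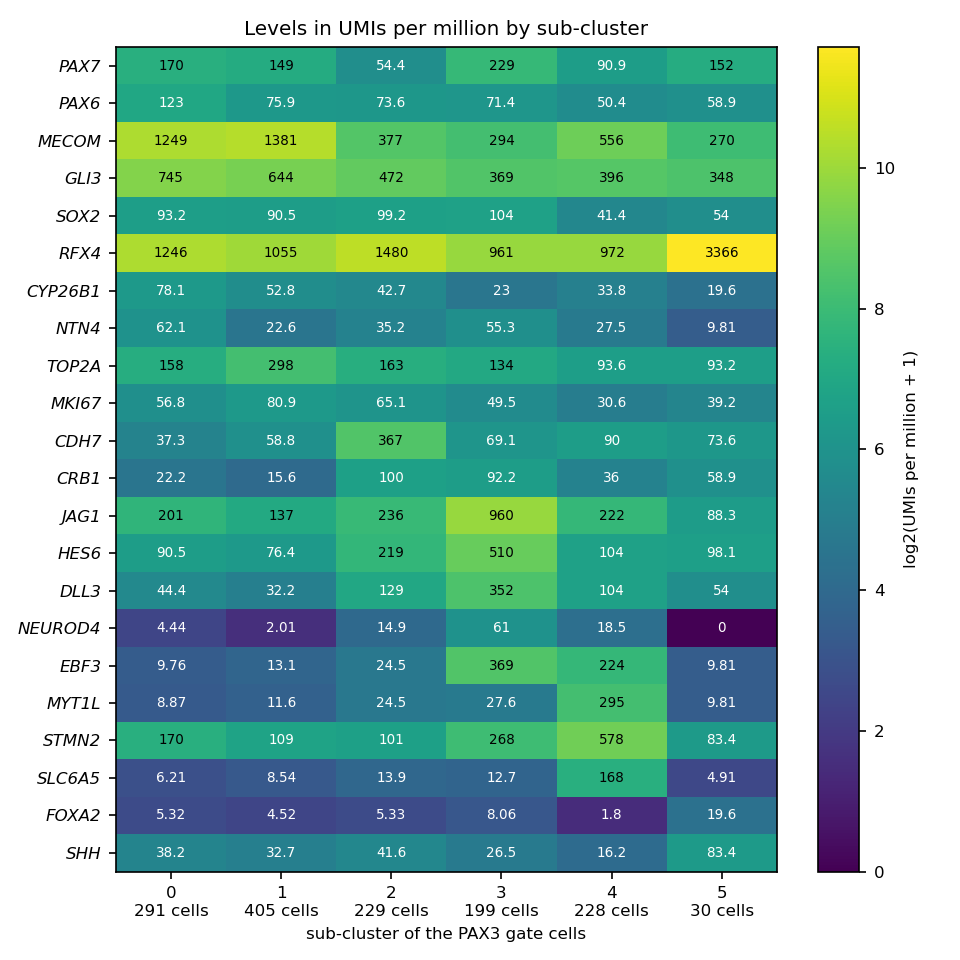
Levels in CPM (numbers) of 22 genes across the 6 sub-clusters of the members, coloured by log2(CPM + 1). PAX7 is at 229 in sub-cluster 3 and 54.4 in sub-cluster 2, and MECOM is at 1249 and 1381 in sub-clusters 0 and 1.

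PAX7 and SOX2 had 0 UMIs in the libraries of days 0 and 3, which allow up to 0.0122 and 0.160 CPM at 3 UMIs. PAX6 was at 0.0365 CPM on day 0 and 2.51 on day 3, and LGR5 at 0.0162 on day 0 and 0 on day 3. GLI2 and GLI3 were already at 23.9 and 13.7 CPM in the day 0 fibroblasts and at 14.9 and 8.003 on day 3. MECOM was at 6.10 and 26.1 CPM and NFIA at 5.34 and 64.5 on these days. The day 0 library held 246546451 UMIs in 16773 cells and the day 3 library 18743865 in 11454. The labels name other preparations for those libraries than for day 5, and the effect of this on the levels was not tested.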

How the data were processed

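Raw UMI counts per gene and barcode were used as deposited by the authors, 1 matrix per library, with no normalization. The submitters' processing notes name Cell Ranger 4.0.0 and the build hg38 (GRCh38), and the matrix headers do not all name the same software. The labels' protocols name nuclei and an ATAC kit for days 0 and 3 and dissociated cells with a 3' gene expression kit for day 5. No source used here gives the treatment of introns or of strand.

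The day 5 matrix held 2037119 barcodes. Barcodes of at least 2155 UMIs, the 99th percentile of the top 10000 barcodes divided by 10, were called as cells (9304), and 9219 were kept (300 genes or more, mitochondrial share no higher than 20%). Cells of days 0 and 3 needed 500 UMIs. Doublets were scored with Scrublet, which marked 2 cells, so it had not worked and none was removed. The gate, the comparison cells and all levels were computed from the counts as given in the report, with groups under 3 UMIs set at 3 in ratios. Clusters came from scanpy 1.11.5 with igraph 0.11.9 (2000 variable genes without gate genes, 30 components, 15 neighbours, Leiden resolution 0.5). Gene positions come from GENCODE 29. The calling rule was tested on simulated data.

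The members, the 30 gene lists and the rules were chosen with earlier results of these data known. Named genes were the 15 largest and 15 smallest ratios above 50 CPM, up to 5 members per list by level, 20 set markers and 8 per further comparison, leaving out clones and antisense genes. Called list members and genes used to describe sub-clusters are named in addition, chosen after their values were seen. Alternatives covered the gate, the cell filter, the scaling (edgeR TMM) and the limits. Some genes are not reported here.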

Additional observations from a re-analysis of the deposited data

How the results depend on the processing

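No paired analysis was possible because each group is 1 library. Of the 50 named genes called in the comparison with all other cells, all 50 kept their sign under the alternative gates, cell filters, scalings and limits other than those chosen after seeing the data. Fewer kept their call: 35 without PAX3 in the gate, 44 with the gate on thinned cells, 44 with cells of at least 1000 UMIs, 45 with a larger CPM of at least 50, 24 at a ratio of at least 3 and 46 to 50 under the others. The counts of genes higher (130), lower (376), progenitor genes higher (3), dorsal factors higher (6) and pan-neuronal genes lower (0) moved by over 1.5 times under these settings, and the cause was not tested. Without PAX3 in the gate 74 genes were higher and 3 dorsal factors, and with the gate on thinned cells 81 and 3. With a larger CPM of at least 50, 52 were higher, 159 lower and 3 dorsal factors higher, and with no CPM limit 303 higher and 815 lower. A ratio of at least 1.5 gave 498 higher, 821 lower and 7 pan-neuronal genes lower, and a ratio of at least 3 gave 18, 176, 0 progenitor genes and 2 dorsal factors. Pan-neuronal genes lower were 5 with a gate of the top 10%, 5 with thinned counts, 1 without the 5% of cells with most UMIs and 3 with the mean of per-cell CPM.

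Of the comparisons added after seeing the data, leaving cluster 8 out gave 45 higher, 221 lower, 0 progenitor genes, 2 dorsal factors and 5 pan-neuronal genes lower, and 20 of the 50 kept their call. Members without cluster 2 gave 643 genes lower and 11 pan-neuronal genes lower. Both groups within clusters 0 and 3 gave 42 higher, 66 lower, 0 progenitor genes and 1 dorsal factor, and 6 of the 50 named genes kept their call. There the log2 ratio turned for KCNH5 (0.33), DCDC2 (0.053), KCNC2 (0.31), ARHGEF28 (0.012), CORIN (0.22), SHH (0.24), FOXA1 (0.39), MAML2 (0.18), SULF1 (0.12), NTN1 (0.26) and MBP (0.45). With members of at least 4 gate UMIs, 130 genes were higher and 372 lower. Counting error limits genes under 10 CPM in the members, where 3 UMIs are 0.408 CPM.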

Other observations

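Within clusters 0 and 3, other genes than the dorsal factors differed between members and other cells, as values from 1 library with no test. The EBF factors EBF1 and EBF3, which act in differentiating neurons, were higher at 92.2 against 39.9 CPM and 58.1 against 26.2. UNC5D, a netrin receptor family member, was at 257 against 90.6 CPM, and PRDM16, a zinc finger factor, at 58.8 against 23.7. The cadherins CDH7, CDH18 and CDH20 were lower at 113 against 285 CPM, 24.8 against 51.3 and 28.1 against 72.5. SEMA3A, a repulsive guidance ligand, was at 103 against 258 CPM, and RNF220, a ubiquitin ligase, at 211 against 634. DHRS3, an enzyme that reduces retinaldehyde, was at 22.8 against 7.36 CPM. These genes were chosen after their values were seen.

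Among genes with over 100000 bases of intron (gene span less exons), 54 of 2905 were higher and 230 lower, against 27 and 41 of 3203 with under 20000. Lower calls were thus 230 of 376 in the long-intron group, whose part in the counts was not tested.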
